A study of Homo sapiens with 6 samples.

Results

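Lipid droplet genes were examined in A2780, a human ovarian cancer cell line, after treatment with recombinant human CRMP2 (r-CRMP2), a microtubule-associated protein that the study found in the medium of cancer associated fibroblasts. The set consisted of 10 genes chosen by name, with earlier results of these data known. They were HILPDA, PLIN2, PLIN3, PLIN4, PLIN5, G0S2, PNPLA2, VLDLR, DGAT1 and DGAT2. All 10 were found among the 44591 genes listed in the deposited tables. Polyadenylated RNA was sequenced from 3 untreated libraries and 3 libraries of cells that received 40 ng/ml r-CRMP2 in their medium, and the titles give 48 h for both groups. All 6 libraries were of wild-type A2780 grown in DMEM with fetal bovine serum, and no carrier control is described for the untreated cells. One cell line was used, and the labels do not say whether the replicates were separate cultures, so the p-values measure the spread between these libraries, which may be technical.

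Lipid droplets are stores of neutral lipid, mostly triglyceride and cholesterol ester, enclosed by a phospholipid monolayer. DGAT1 and DGAT2 catalyse the last step of triglyceride synthesis, and perilipins coat the droplet surface and control the access of lipases. PNPLA2 (ATGL) removes the first fatty acid from triglyceride, and HILPDA and G0S2 are small proteins that inhibit it. VLDLR brings lipoprotein lipid into the cell. In many cell types HILPDA, PLIN2 and VLDLR are induced in hypoxia, when cells tend to accumulate droplets.

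The libraries held between 21888530 and 25711353 counts. The r-CRMP2 replicate 3 library was the deepest and had counts on 22438 genes, against 25152 to 26302 in the other 5, so the counts of called genes are also given without it. In the labelled cell type, KRT8, KRT18 and KRT7 were abundant (1266, 1251 and 665 CPM on average in untreated cells, where CPM is the count divided by the TMM-scaled library size). Of 11 ovarian epithelial markers, WT1, CDH1 and CLDN3 were below 1 CPM in every library. Of the 8 markers that were tested, 2 were higher (25% against 28.2% of all genes tested) and 2 lower (25% against 30.1%). The sum of the list, mostly keratins, was between 3219 and 3292 CPM in untreated and between 3235 and 3501 CPM in r-CRMP2 libraries. Among 7 adipocyte markers, FABP4 had no count in any library, and ADIPOQ, LEP and CIDEC were below 1 CPM. The other 3, PLIN1, LPL and PPARG, did not pass the test used below, and the sum, mostly LPL, was between 230 and 240 CPM in untreated and between 217 and 228 CPM in r-CRMP2 libraries. Of 7 macrophage markers only CSF1R was tested, and it did not pass (3.19 and 4.41 CPM on average, edgeR adjusted p = 0.0703). The sum of the list, mostly CSF1R, was between 2.78 and 4.64 CPM in untreated and between 4.75 and 4.96 CPM in r-CRMP2 libraries. Of 11 fibroblast markers 10 were tested, with 4 higher (40% against 28.2% of all genes tested) and 3 lower (30% against 30.1%). The sum of the fibroblast list, mostly COL1A1, was between 613 and 686 CPM in untreated and between 538 and 562 CPM in treated libraries. The part of these marker levels in the results below was not tested, and in bulk RNA fewer cells of a type and less RNA per cell cannot be told apart.

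Of the 10 genes, 9 passed the filter on low counts and were tested. HILPDA, PLIN2, VLDLR and PNPLA2 were upregulated in r-CRMP2-treated cells, and PLIN4 was downregulated (edgeR's quasi-likelihood test, adjusted p-value threshold of 0.05 over 16222 genes). PLIN3, PLIN5, DGAT1 and DGAT2 did not pass. The 4 rises among 9 tested genes (44.4%) compare with 28.2% of all genes tested that were higher, and the single fall (11.1%) with 30.1% that were lower. HILPDA and PLIN2 were the 2 genes that also exceeded a log2 fold change of 1, which 5.12% of all genes did upward and 8.86% downward. The log2 fold changes of all 9 tested genes had a median of 0.34, against -0.03 for all genes tested. Because the set was chosen with earlier results of these data known, these values describe the set and support no excess of rises. Without r-CRMP2 replicate 3, the set again had 4 genes higher and 1 lower. Of all genes, 4257 were then higher and 4351 lower, against 4574 and 4875 with all libraries. The plot of CPM by library shows the separation of the groups for each gene.

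**Figure D1:**
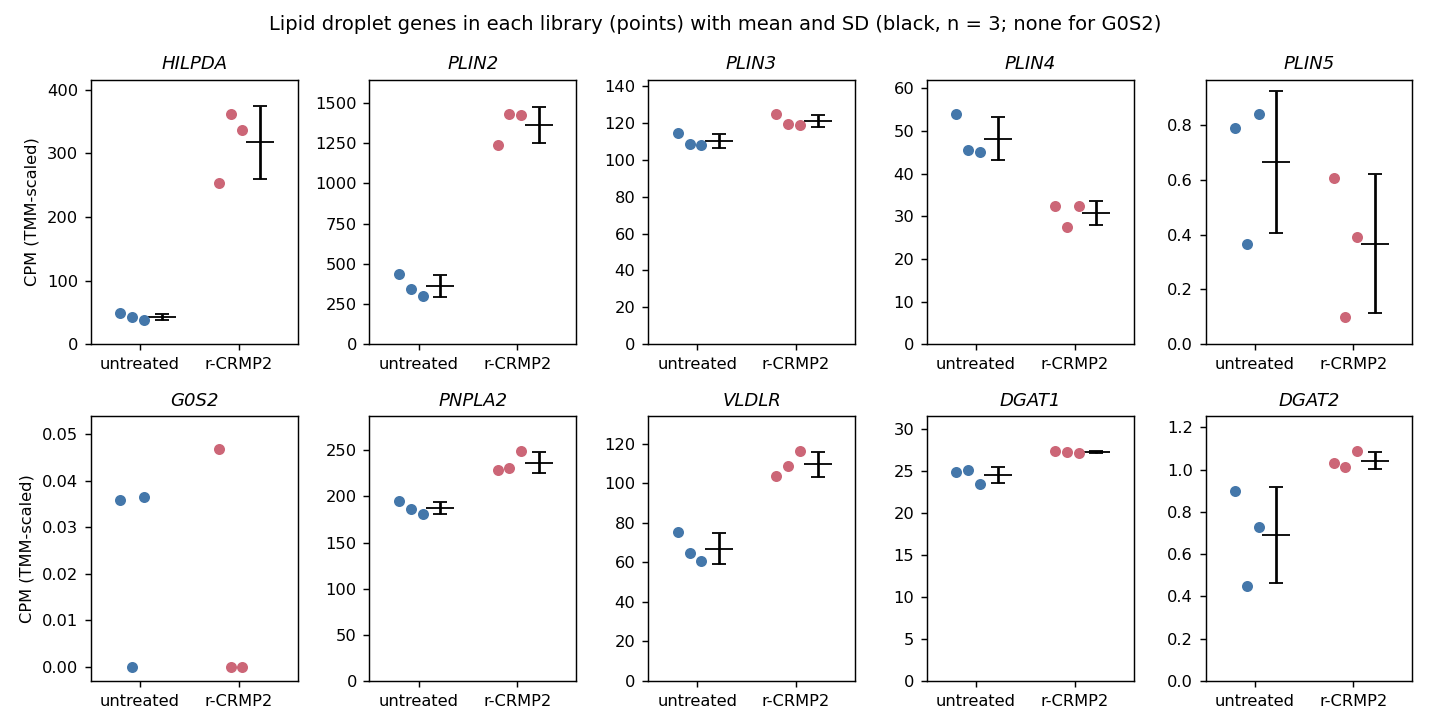
CPM on TMM-scaled libraries (y axis, linear, a separate scale for each gene) of the 10 lipid droplet genes in 3 untreated (blue) and 3 r-CRMP2 (red) libraries; each point is 1 library and the black bars are the mean and SD, omitted for G0S2, whose libraries held 0 or 1 count. HILPDA and PLIN2 show the widest gaps, from means of 43.1 and 362 CPM to 317 and 1366 CPM, while PLIN4 lies lower in all 3 treated libraries and PLIN5 overlaps.

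The 250 bases before the annotated start are shown for PLIN2 and VLDLR, which rose, and for PLIN4, which fell. The sequences are from RefSeq (GRCh38.p14, coordinates of that build) and are written 5′ to 3′ on the strand of the gene. Of the 10 genes 7 had an entry (HILPDA, DGAT1 and DGAT2 had none). These starts can differ from those of the counted genes, whose deposited coordinates are of another build, hg19. PLIN4 ended at 4517716 there and PLIN2 at 19127604, while the windows began at 4518487 and 19127493. Whether the windows adjoin the starts used in A2780 was not tested. Capitals mark the core of the hypoxia response element on either strand, ACGTG or GCGTG, whose reverse complements are CACGT and CACGC.
PLIN2 (chr9:19127493-19127742, minus strand): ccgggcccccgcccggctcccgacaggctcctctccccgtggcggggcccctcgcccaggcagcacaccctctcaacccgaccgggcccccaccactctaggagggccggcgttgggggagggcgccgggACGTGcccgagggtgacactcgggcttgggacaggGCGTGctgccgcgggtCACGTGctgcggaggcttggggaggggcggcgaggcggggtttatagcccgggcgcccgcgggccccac
VLDLR (chr9:2621537-2621786, plus strand): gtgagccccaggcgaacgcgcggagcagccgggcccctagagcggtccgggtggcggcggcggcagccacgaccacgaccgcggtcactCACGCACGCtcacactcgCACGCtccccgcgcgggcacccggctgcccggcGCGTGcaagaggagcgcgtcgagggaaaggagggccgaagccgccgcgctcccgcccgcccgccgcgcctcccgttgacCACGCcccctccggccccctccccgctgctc
PLIN4 (chr19:4518487-4518736, minus strand): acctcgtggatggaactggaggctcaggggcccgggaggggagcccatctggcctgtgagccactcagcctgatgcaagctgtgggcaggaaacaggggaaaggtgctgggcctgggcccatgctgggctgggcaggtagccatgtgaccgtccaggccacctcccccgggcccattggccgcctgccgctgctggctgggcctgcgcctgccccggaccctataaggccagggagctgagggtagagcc
In PLIN2 there were 4 matches, of which the pair nearest the start are the 2 strands of a single CACGTG, also known as an E-box. VLDLR had 5 matches, all of the GCGTG form, and the first 2 share a base. PLIN4 had none. Either core was present in 43.2% of 35116 promoters of the same length, and 3 or more matches in 7.76%. ACGTG alone was present in 18.5%, GCGTG in 32.2% and CACGTG in 6.34%. These shares are over promoters of any base composition, while both cores contain CG. Promoters of like composition were not compared, so the number of matches cannot be called unusual. Of the others, PNPLA2, which rose, had none, PLIN3 and PLIN5 had 3 and 2, and G0S2, which was barely detected, had 4. The PPAR element known as direct repeat 1, in its exact consensus, was searched on both strands and was in none of the 7 (0.0171% of all promoters). A match describes the letters in this window and is not evidence of binding.

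HILPDA, the inhibitor of PNPLA2, had the largest rise of the set. In hg19, the build named in the submitters' processing notes, it lies on chromosome 7 (128095884 to 128098472, plus strand). Untreated replicates 1, 2 and 3 had 48.4, 42.3 and 38.8 CPM, and r-CRMP2 replicates 1, 2 and 3 had 253, 362 and 337 CPM. The groups lay far apart, and r-CRMP2 replicate 1 was the lowest of the treated libraries. The log2 fold change was 2.88, or 7.35-fold (SE 0.18, edgeR adjusted p = 2e-13, where SE is the standard error of the log2 difference), which placed HILPDA at rank 54 of the rises among 16222 genes. A processed transcript on the same strand, ENSG00000240758.2, overlaps HILPDA by 2482 bases. It had between 87 and 176 counts per library, 1.72% to 10.7% of those of HILPDA. Its log2 fold change was 0.66 (edgeR adjusted p = 0.00288), and how reads in the shared bases were assigned is not given.

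G0S2, the other inhibitor (chromosome 1, 209848670 to 209849735), was at or under the limit of detection. It had 1, 0 and 1 counts in the untreated and 1, 0 and 0 counts in the r-CRMP2 libraries. A count of 0 allows up to 3 counts, equal to between 0.108 and 0.152 CPM depending on the library. No fold change is given, since both groups were under this limit.

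PNPLA2 (chromosome 11, 818901 to 825573), the triglyceride lipase, rose slightly. Its untreated libraries had 195, 186 and 181 CPM and its r-CRMP2 libraries 229, 231 and 249 CPM. The groups did not overlap on this scale. The log2 fold change was 0.34 (SE 0.05, edgeR adjusted p = 0.000121). This call depended on the scaling between libraries: scaled by library size only it was 0.03 (edgeR adjusted p = 0.715), and the TPM of the groups overlapped.

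The lipase and its inhibitors were therefore also compared within each library, where scaling between libraries has no influence. TPM divides the count by gene length and allows levels of different genes to be compared. The summed TPM of HILPDA and G0S2 was 0.427, 0.390 and 0.368 times that of PNPLA2 in untreated replicates 1, 2 and 3. In r-CRMP2 replicates 1, 2 and 3 it was 1.90, 2.69 and 2.33 times that of PNPLA2. The mean ratio went from 0.395 ± 0.0297 to 2.31 ± 0.394 (SD, n = 3 in each group), so inhibitor transcripts were fewer than lipase transcripts in every untreated library and more numerous in every treated one. G0S2 contributed almost nothing to this sum.

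Of the perilipins, PLIN2 (chromosome 9, 19115759 to 19127604, minus strand), which coats droplets in most cell types, was the most abundant and rose the most. It was present at 439, 345 and 302 CPM in the untreated and at 1238, 1431 and 1429 CPM in the r-CRMP2 libraries. No treated library came near the untreated range, and untreated replicate 1 was the highest of its group. The log2 fold change was 1.92, or 3.77-fold (SE 0.17, edgeR adjusted p = 1.46e-11). By TPM, PLIN2 ranked between 237 and 346 among all listed genes in untreated cells and between 123 and 132 in treated cells. No other listed gene overlaps it in the deposited coordinates.

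PLIN3, PLIN4 and PLIN5 lie on the minus strand of chromosome 19. PLIN4 (4502192 to 4517716), which coats nascent droplets in adipocytes, was downregulated. Its untreated libraries had 53.9, 45.6 and 45.1 CPM and its r-CRMP2 libraries 32.3, 27.5 and 32.3 CPM. Every treated library was below every untreated one. The log2 fold change was -0.65 (SE 0.11, edgeR adjusted p = 3.06e-06), and -0.96 with library size alone. HDGFRP2, which overlaps the end of PLIN4 by 41 bases on the opposite strand, had between 237% and 512% of the counts of PLIN4 and a log2 fold change of 0.20 (edgeR adjusted p = 0.0153).

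PLIN3 (4838346 to 4867780), a perilipin that moves from the cytosol to forming droplets, had 115, 108 and 108 CPM in untreated and 125, 119 and 119 CPM in r-CRMP2 libraries. Its log2 fold change of 0.13 (SE 0.04) did not pass the threshold (edgeR adjusted p = 0.0676). The value changed with the scaling: PLIN3 passed as higher with RLE size factors (0.15, adjusted p = 0.0404), in DESeq2 (0.15, adjusted p = 0.0372) and without r-CRMP2 replicate 2 (0.15, adjusted p = 0.0356). With library size alone it passed as lower (-0.18, adjusted p = 0.0177). No direction can be given for PLIN3. An antisense gene, ENSG00000267484.1, overlaps it by 574 bases and held 3.3% to 6.06% of its counts (log2 fold change 0.16, edgeR adjusted p = 0.504). PLIN5 (4522543 to 4535208), which joins droplets to mitochondria in oxidative tissues, had 22, 9 and 23 counts in untreated and 13, 2 and 9 in r-CRMP2 libraries. The groups overlapped, and the log2 fold change of -0.84 (SE 0.66) did not pass (edgeR adjusted p = 0.161).

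Among the 4 perilipins, PLIN2 took 78.3%, 75.4% and 72.9% of the summed TPM in untreated replicates 1, 2 and 3. In r-CRMP2 replicates 1, 2 and 3 it took 91.0%, 92.5% and 92.4%. The share of PLIN3 went from 21.0% ± 2.48 to 7.34% ± 0.757 and that of PLIN4 from 3.35% ± 0.211 to 0.687% ± 0.0984 (SD, n = 3 in each group). PLIN5 was below 0.2% in every library. The shares of all 4 did not overlap between the groups. Since the shares add up to the whole, the rise of PLIN2 by itself lowers the others. The lower share of PLIN3 thus gives no direction for its level, which was not settled. PLIN1, the perilipin of adipocytes, was low, with 1.0 ± 0.228 CPM in untreated and 0.558 ± 0.296 CPM in treated cells (SD, n = 3).

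**Figure D2:**
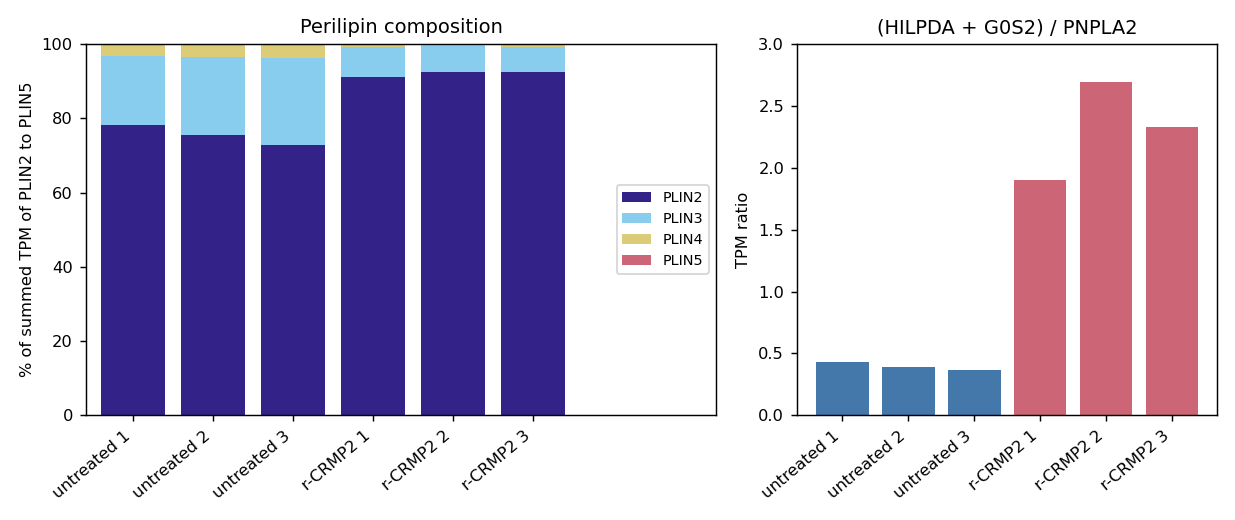
Left, the share of PLIN2, PLIN3, PLIN4 and PLIN5 in their summed TPM (y axis, percent) in each of the 6 libraries; right, the TPM of HILPDA plus G0S2 divided by that of PNPLA2 (y axis, ratio) in each library. PLIN2 fills between 72.9% and 78.3% of the untreated bars and over 90% of the treated ones (PLIN5 is too small to see), and the ratio is below 0.5 in untreated and above 1.5 in treated libraries.

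VLDLR (chromosome 9, 2621774 to 2656103, plus strand), the lipoprotein receptor, was upregulated. It had 75.5, 64.5 and 60.8 CPM in the untreated and 104, 109 and 116 CPM in the r-CRMP2 libraries. All treated libraries were above all untreated ones. The log2 fold change was 0.71, or 1.64-fold (SE 0.10, edgeR adjusted p = 2.14e-07), and 0.40 with library size alone (adjusted p = 0.000151). Of the antisense genes that overlap VLDLR, ENSG00000236404.4 held at most 0.695% and VLDLR-AS1 at most 0.885% of its counts in any library.

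The enzymes of the last step of triglyceride synthesis did not pass the threshold. DGAT1 had 24.8, 25.1 and 23.4 CPM in untreated and 27.3, 27.2 and 27.0 CPM in r-CRMP2 libraries, a log2 fold change of 0.15 (SE 0.03, edgeR adjusted p = 0.0954). With library size alone it was -0.16 (adjusted p = 0.0969), so its sign rested on the scaling. HSF1, which overlaps DGAT1 by 144 bases on the opposite strand, had over 3 times its counts and a log2 fold change of 0.27 (edgeR adjusted p = 0.000888). DGAT2 (chromosome 11, 75479778 to 75512581) had 25, 11 and 20 counts in untreated and 22, 20 and 25 in r-CRMP2 libraries, a log2 fold change of 0.58 (SE 0.26, edgeR adjusted p = 0.167). Per length, DGAT1 exceeded DGAT2 between 16.4 and 36.9 times, and the highest ratio was in untreated replicate 2, where DGAT2 had 11 counts. The log2 difference of this ratio between the groups was -0.49, and -0.19 without untreated replicate 2.

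**Figure D3:**
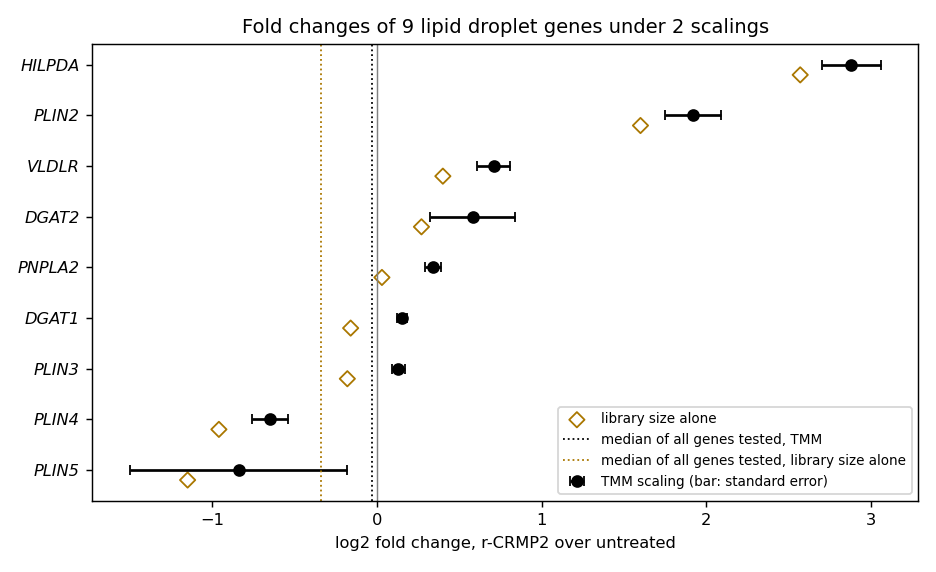
Log2 fold change of r-CRMP2 over untreated (x axis) for the 9 genes tested, with TMM scaling (black points, bars are standard errors) and with library size alone (open diamonds); dotted lines are the medians of all genes tested, -0.03 and -0.34. HILPDA, PLIN2 and VLDLR stay above 0 and PLIN4 below 0 under both scalings, PNPLA2 falls to 0.03 with library size alone, and PLIN3 and DGAT1 change sign.

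The scaling moved all genes together. Relative to the median of all genes tested, the log2 fold changes with library size alone were 2.90 for HILPDA, 1.94 for PLIN2, 0.74 for VLDLR, 0.36 for PNPLA2 and -0.62 for PLIN4. Subtracting the median removes a shift common to all genes, so these values cannot decide the calls that depended on the scaling. On the TMM scale 7 of the 9 genes had all treated libraries above all untreated ones, where 30.9% of all genes did, and 1 was entirely below (33.3% of all genes). On the TPM scale, which sums to the same total in each library, HILPDA, PLIN2 and VLDLR were entirely above (14.0% of all genes) and PLIN3, PLIN4 and DGAT1 entirely below (55.9%).

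The order of the genes by TPM changed between the groups. In untreated cells it was PLIN2 (420 TPM on average), PNPLA2 (188), PLIN3 (115), HILPDA (74.4), VLDLR (30.9), PLIN4 (18.5), DGAT1 (16.0), DGAT2 (0.686), PLIN5 (0.663) and G0S2 (0.0608). Neighbours in this order did not overlap over the 3 libraries, except DGAT2 and PLIN5. In r-CRMP2-treated cells HILPDA (435 TPM) was second to PLIN2 (1264 TPM), ahead of PNPLA2 (190 TPM) and PLIN3 (101 TPM). VLDLR (40.4 TPM) followed, and DGAT1 (14.2 TPM) was above PLIN4 (9.42 TPM). In the treated libraries PLIN5 and G0S2 were the only neighbours that overlapped. HILPDA thus went from place 4 to place 2, and PLIN4 and DGAT1 exchanged places.

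The genes whose profile was most like that of HILPDA were taken from 10994 genes with at least 5 CPM on average, by the root mean square difference of log2 CPM over the 6 libraries, each relative to its untreated mean. They were IER3-AS1 (listed as ENSG00000272273.1, 0.054), SLC2A3 (0.055), the gene of the glucose transporter GLUT3, the epithelial transcription factor ELF3 (0.068) and the histone gene HIST1H2BJ (0.110). For PLIN2 they were CLEC2B (0.056), PRADX (listed as ENSG00000235027.1, 0.061), the phosphatase gene DUSP5 (0.069) and LOX (0.072), which encodes the collagen cross-linking enzyme lysyl oxidase. HILPDA and PLIN2 differed from each other by 0.672 on this measure, and neither was among the nearest genes of the other. The measure mostly follows the size of the fold change, which differed between the 2 genes. The nearest genes of HILPDA had log2 fold changes between 2.81 and 2.91, and those of PLIN2 between 1.86 and 2.01. Shared or separate regulation was not tested.

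Around these genes, 6 lists of other lipid genes were compared, 119 genes in all, of which 95 were tested. The lists too were chosen with earlier results of these data known. Of these, 23 (24.2%) were higher and 26 (27.4%) lower, against 28.2% and 30.1% of all genes tested, and their median log2 fold change was -0.06. Rises and falls were found in every list, as the plot of the lists shows. All fold changes given for the lists are on the TMM scale, and the small ones depended on that scaling. Under library size alone, where the median of all genes was -0.34, 3 uptake genes were higher in place of 4. Only 1 gene of fatty acid synthesis and 1 of triglyceride synthesis were then higher in place of 4 each, and 2 of oxidation in place of 5. More genes were lower in every list.

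Lipoprotein and fatty acid uptake had 4 of 14 tested genes higher (28.6% against 28.2% of all genes) and 2 lower (14.3% against 30.1%). The lipoprotein receptor LRP1 rose (543 ± 58.0 to 1165 ± 135 CPM, SD, n = 3, log2 fold change 1.10), as did the HDL receptor SCARB1 (0.81) and the fatty acid translocase CD36 (0.24). The fatty acid transport proteins SLC27A4 (-1.32) and SLC27A2 (-0.84) fell. The lipase LPL, abundant in both groups (214 and 205 CPM), had a log2 fold change of -0.06 (edgeR adjusted p = 0.393).

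In fatty acid synthesis 4 of 16 genes were higher (25% against 28.2% of all genes) and 4 lower (25% against 30.1%). SCD, the main stearoyl-CoA desaturase, rose from 443 ± 13.6 to 1038 ± 47.3 CPM (SD, n = 3, log2 fold change 1.23, edgeR adjusted p = 9.24e-12). SCD5 (0.40), the elongase ELOVL5 (0.37) and the carboxylase ACACA (0.22) also rose. ACACB, the carboxylase at mitochondria, fell by 1.35 on the log2 scale, and fatty acid synthase, FASN, fell from 478 ± 6.71 to 327 ± 26.2 CPM (SD, n = 3, log2 fold change -0.55). SREBF1, which controls this pathway, fell by 0.20 on the log2 scale (edgeR adjusted p = 0.0391), although its groups overlapped. Without untreated replicate 3 or r-CRMP2 replicate 3, 2 genes were lower in place of 4.

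In triglyceride and cholesterol ester synthesis 4 of 17 genes were higher (23.5% against 28.2% of all genes) and 6 lower (35.3% against 30.1%). The lipins LPIN2 (0.53) and LPIN3 (0.50), the acyl-CoA synthetase ACSL4 (0.45) and AGPAT2 (0.33) rose. SOAT1, which makes cholesterol esters, fell from 26.9 ± 0.698 to 14.2 ± 0.822 CPM (SD, n = 3, log2 fold change -0.92), and GPAM, which starts glycerolipid synthesis at mitochondria, fell by 0.89 on the log2 scale. AGPAT4 (-0.43) and GPD1L (-0.36) fell too.

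In lipolysis 5 of 11 genes were higher (45.5% against 28.2% of all genes) and 2 lower (18.2% against 30.1%). PNPLA3 (0.56), a paralogue of PNPLA2, DDHD1 (0.43), the monoglyceride lipase MGLL (0.32) and DDHD2 (0.25) rose, all by less than 1 on the log2 scale. The groups of DDHD1 overlapped, with 30.6 CPM in r-CRMP2 replicate 2 and 31.5 CPM in untreated replicate 1. CES2 (-1.39) and ABHD6 (-0.83) fell. ABHD5, the coactivator of PNPLA2, had 14.2 and 12.9 CPM (log2 fold change -0.14, edgeR adjusted p = 0.244), and the hormone-sensitive lipase LIPE was below 1 CPM on average in both groups. With library size alone, 1 gene of this list was higher.

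Of 14 genes for droplet coating and formation, 1 was higher (7.14% against 28.2% of all genes) and 6 lower (42.9% against 30.1%). TMEM159, a partner of seipin in droplet formation, rose (0.65), while seipin itself, BSCL2, had a log2 fold change of 0.03 (edgeR adjusted p = 0.784). CIDEB, which joins droplets in hepatocytes, fell by 1.25 on the log2 scale, from 3.65 to 1.52 CPM. FAF2 (-0.65), which handles protein degradation at droplets, fell, as did LSS (-0.41) and NSDHL (-0.35), which are sterol synthesis enzymes found on droplets.

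In fatty acid oxidation 5 of 23 genes were higher (21.7% against 28.2% of all genes) and 6 lower (26.1% against 30.1%). The very long-chain acyl-CoA dehydrogenase ACADVL (0.75), HADHB (0.47) and HADHA (0.38), the subunits of the mitochondrial trifunctional protein, and the thiolase ACAA2 (0.18) rose. CPT2, the carnitine palmitoyltransferase of the inner membrane, fell from 26.3 ± 4.01 to 8.03 ± 1.34 CPM (SD, n = 3, log2 fold change -1.71, edgeR adjusted p = 1.51e-09). The regulator PPARA (-0.79), ETFDH (-0.71) and the medium-chain enzyme ACADM (-0.70) fell. Without untreated replicate 2 or untreated replicate 3, 3 genes were higher in place of 5.

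**Figure D4:**
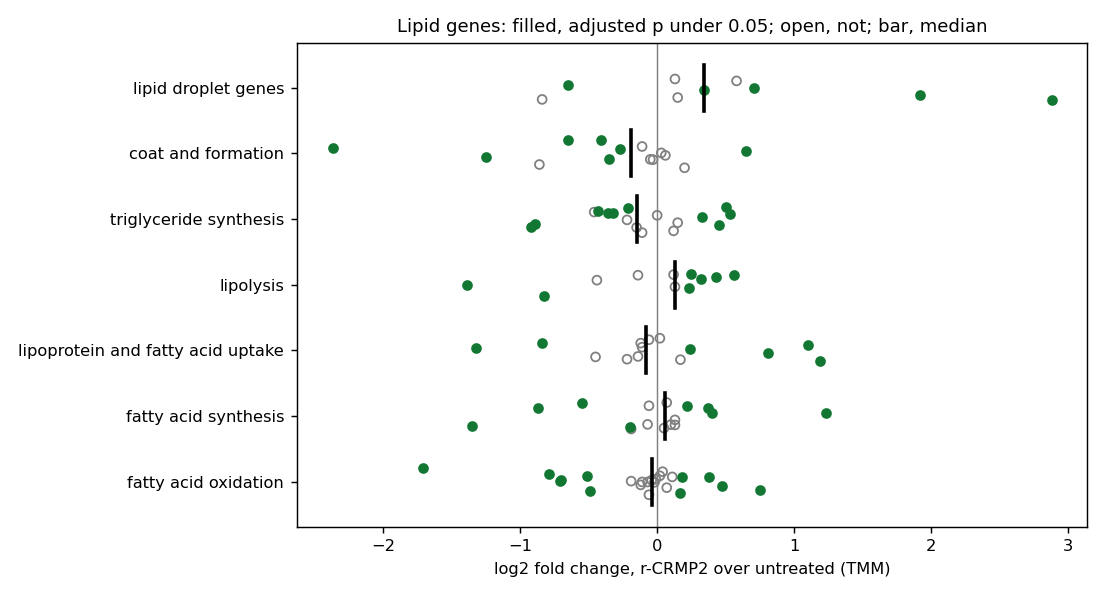
Log2 fold change of r-CRMP2 over untreated (x axis, TMM scaling) for the 9 lipid droplet genes and the 95 genes of 6 other lipid lists (rows); filled points have an adjusted p under 0.05, open points do not, and vertical bars are medians (vertical position within a row has no meaning). HILPDA and PLIN2, at 2.88 and 1.92, lie to the right of every other lipid gene plotted, of which SCD (1.23) comes nearest, and METTL7B (-2.37, below 1 CPM in every library) and CPT2 (-1.71) are the lowest.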

How the data were processed

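Polyadenylated RNA of A2780 cells (3 untreated and 3 r-CRMP2 libraries) was made into NEBNext Ultra libraries and sequenced with paired ends. Per the submitters' processing notes, FastQC and HISAT2 were used with the build hg19. The counting tool, annotation and strand setting were not given in the sources used here. The authors deposited raw counts per gene, and these were used for all tests. The deposited TPM values, which differed by at most 4.72e-06 from count over length rescaled, were used for levels, shares and ratios.

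Groups were compared over all genes by the quasi-likelihood test of edgeR 4.0.16 (R 4.3.3) after TMM scaling and its low-count filter, which left 16222 genes, with Benjamini-Hochberg adjustment and an adjusted p-value threshold of 0.05. Standard errors come from log2 CPM with a prior count of 2. The gene set and the lists were chosen with earlier results of these data known. The lists hold genes written by hand, and the genes named from each are up to 4 rises and 4 falls of largest size past the threshold with at least 1 CPM on average. Genes outside this rule (PLIN1, LPL, ABHD5, LIPE, BSCL2, PPARG, METTL7B and the keratins) were named after their values were seen, and 1 gene that the rule names is not reported here. Standard errors and SDs describe the spread between libraries, and the limit given for G0S2 covers counting error only. On simulated counts for 16222 genes, 38 of 50 genes lowered and 46 of 50 raised by 1 on the log2 scale were recovered. Of 16022 genes left unchanged, 12 were called. Far fewer genes changed in the simulation than were called here (4574 higher and 4875 lower). Its recovery therefore need not hold for these data.

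Fits were repeated in DESeq2 1.42.0, with other scalings (RLE, or library size only), with other filters (none, or a minimum of 10 counts in each library), with the replicate block, against a 2-fold change, and without each library in turn. Shares were repeated on raw counts.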

Additional observations from a re-analysis of the deposited data

How the results depend on the processing

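The fit with library size alone moved most counts, and it moved the median log2 fold change of all genes from -0.03 to -0.34. The number of lipid droplet genes lower went from 1 to 2, since PLIN3 passed there with -0.18, and DGAT1 had -0.16, both opposite in sign to TMM scaling. Of all genes, 2171 were higher and 8449 lower, against 4574 and 4875. In the lists, 12 genes of coating and formation, 10 of triglyceride synthesis, 8 of uptake, 12 of fatty acid synthesis and 17 of oxidation were lower, and 1 of triglyceride synthesis, 1 of lipolysis, 1 of fatty acid synthesis and 2 of oxidation were higher. Tested against a 2-fold change, 2 lipid droplet genes were higher and 0 lower (in edgeR's test against no change PLIN4 was lower, and 1 gene in DESeq2), with 369 and 467 of all genes. Without a low-count filter 3 oxidation genes were higher, and in DESeq2 2 fatty acid synthesis genes were lower. PLIN2's share of the perilipins rose by 16.4 percentage points in TPM and by 20.7 in raw counts.

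Leaving out each library in turn gave 4 to 5 lipid droplet genes higher, 1 lower and 2 past both thresholds. Of all genes it gave 4163 to 4568 higher and 4332 to 4696 lower. It gave 2 to 4 fatty acid synthesis genes lower and 3 to 6 oxidation genes higher. For all these changes the cause was not tested. Of 116 refits of the 9 genes, 107 kept direction and side of the threshold.

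The replicate number did not pair the libraries: correlations of deviations were -0.02, 0.0038 and -0.03, and 0 of 3 untreated libraries correlated best with their own number. With the replicate block, 4 lipid droplet genes were higher and 1 lower, with log2 fold changes of 2.87 for HILPDA and 1.93 for PLIN2. Of all genes, 4456 were higher and 4774 lower in that fit. DGAT2, PLIN5 and G0S2 are limited by depth.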
